A study of Rattus norvegicus with 20 samples.

Results

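The 10 genes described here, Cd68, Aif1, Itgam, Cx3cr1, P2ry12, Csf1r, Trem2, Tyrobp, Lsp1 and Ptprc, mark microglia and other myeloid cells. They were chosen as cell type markers by gene symbol, with earlier results of these data known. They are 10 of 13285 genes tested, measured by 23 of 44254 array spots. Hypothalamic arcuate nucleus was taken at postnatal day 15 (P15) from 20 male Sprague-Dawley rats in 5 groups of 4. In 3 groups the mother had received betamethasone on gestational day 15 (2 injections of 0.4 mg/kg) and the pup had infantile spasms triggered with NMDA on P12, P13 and P15: BYS rats were then given saline, BYA rats ACTH and BYP rats PMX53, an antagonist of the complement receptor C5ar1, by the labels on P13, P14 and P15 before NMDA. The paper on these rats instead describes treatment starting on P12, after the first trigger. BNS rats shared the prenatal betamethasone, had no spasms and were given saline. SNS rats had prenatal saline, no spasms and saline. BYS, BYA, BYP and BNS therefore all carry the betamethasone exposure, and every comparison of a spasm group with BNS holds NMDA and spasms together. The labels do not say which pups were littermates, so the p-values measure the spread between these samples.

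Microglia are the resident macrophages of the brain, and they depend on signalling through Csf1r for survival. At rest they survey tissue with Cx3cr1 and P2ry12, which sense the neuronal chemokine Cx3cl1 and nucleotides released by cells. Trem2 and its adaptor Tyrobp carry signals from lipids and debris, and lysosomal proteins such as Cd68 increase as these cells take up material. Most of these genes are also expressed by macrophages of the meninges and vessels and by blood leukocytes, so a bulk measurement sums over these cells, and fewer cells of a type cannot be told apart from less RNA per cell.

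All levels below are log2 intensities minus the median gene of the same sample, so that 0 is the middle gene of that sample. Differences are in log2 units, and the adjusted p is Benjamini-Hochberg's over all 13285 genes fitted with limma, called under 0.05. The samples were hybridized in pairs, 1 labelled with Cy3 and 1 with Cy5, on 11 arrays of 6 slides, and SNS replicates 1 and 2 each shared their array with a sample not analysed here. BYS, BYA, BYP and BNS each lay on a slide of their own, so slide and group cannot be told apart for them, while SNS was spread over 2 slides. Between 34107 and 44249 spots had a value in a sample. SNS replicate 2, labelled Cy5, had 44159 spots with a value, against 34107 to 39968 in the other Cy5 samples and at least 42678 in the Cy3 samples, and it was also fitted as Cy3. All 6 arcuate neuron genes checked were measured, with levels of -1.21 to 6.37 and a median of 4.41.

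The members covered a wide range of levels. Tyrobp was the brightest, at the 89.5th percentile of all genes tested by its mean over the 20 samples. Aif1 (85), Cx3cr1 (79.9), Trem2 (75.2) and P2ry12 (73.1) were also among the brighter genes by percentile. Lsp1 (53.5) and Itgam (45.7) were near the middle, and Cd68 (39), Csf1r (36.9) and Ptprc (24.6) were below it. These ranks are of spot brightness and do not order the genes by transcript number.

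**Figure D1:**
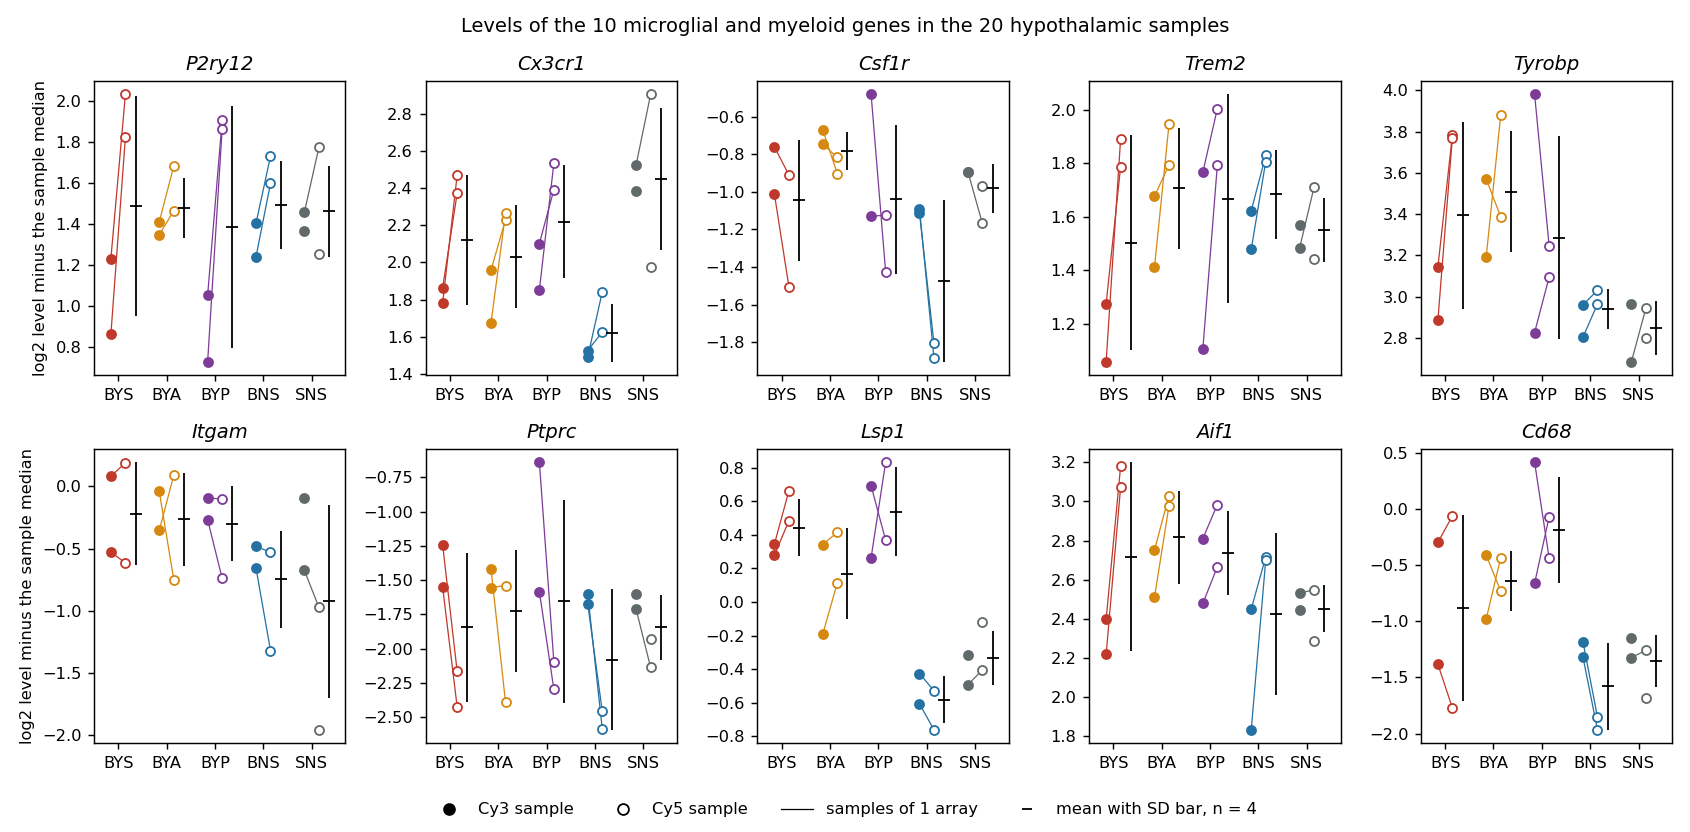
Level of each member in every sample (y axis, log2 intensity minus the sample median), by group (x axis). Filled points are Cy3 samples, open points Cy5 samples, thin lines join the samples of 1 array, and black bars are the mean and SD of 4 samples. The Lsp1 values of BYS and BYP all lie above those of BNS and SNS, and those of Cd68 in BYS split by array.

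The member that passed the test was Lsp1, an F-actin binding protein of leukocytes. Lsp1 had levels of 0.28, 0.48, 0.34 and 0.66 in BYS rats, against -0.61, -0.76, -0.43 and -0.53 in BNS rats. BYA rats had -0.19, 0.11, 0.34 and 0.41, and BYP rats had 0.26, 0.83, 0.69 and 0.37. In SNS rats Lsp1 was at -0.31, -0.12, -0.49 and -0.41. All 8 BYS and BYP samples were above all 8 samples without spasms. Of all genes, 8.5% had BYS wholly above BNS and 6.86% above SNS, and for BYP these shares were 3.19% and 2%. The share with both groups above both was not counted. The lowest BYA sample was the exception among the 12 spasm samples, as it lay between the 2 highest SNS samples.

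Lsp1 rose in BYS rats by 1.02 ± 0.20 (SE) over BNS rats, a fold of 2.03 (95% CI 0.61 to 1.44 in log2, adjusted p = 0.00315). It was the 1 member of 10 called in BYS minus BNS, where 15.5% of all genes tested were called, so the share of members called is no higher than the background. It also rose in BYS rats over SNS rats, by 0.75 ± 0.19 (adjusted p = 0.0205), again the 1 member called, where 7.58% of all genes were. In BYP minus BNS the Lsp1 difference was 1.12 ± 0.20, of about the same size as in BYS, with an adjusted p of 0.0583 in a comparison where 0.0301% of all genes were called. In BYA minus BNS it was 0.75 ± 0.20 (adjusted p = 0.142, 0.241% of all genes called), and neither value passed the test. By mean level the order was BYP (0.54), BYS (0.44), BYA (0.17), SNS (-0.33) and BNS (-0.58), and no neighbours in this order differed by the test: BYP minus BYS was 0.10 (95% CI -0.32 to 0.51), BYA minus BYS -0.27 (-0.69 to 0.14), BYA minus SNS 0.48 (0.09 to 0.88, adjusted p = 0.268) and BNS minus SNS -0.27 (-0.67 to 0.13).

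Lsp1 is measured by 1 spot, and that spot sat in a part of the array where neighbouring spots were also high in BYS samples. The smoothed deviation of its neighbours was 0.24, 0.32, 0.27 and 0.27 in BYS rats, against -0.14, -0.28, 0.04 and -0.17 in BNS rats, with spots placed by their number on a grid inferred from the data. With this local trend removed, the Lsp1 difference in BYS minus BNS was 0.64 (adjusted p = 0.0174), that in BYS minus SNS was 0.35 (adjusted p = 0.287), and those in BYA and BYP minus BNS were 0.71 (adjusted p = 0.0383) and 1.04 (adjusted p = 0.0102). Lsp1 in BYS minus BNS was called under 30 of 31 other settings, the exception being the fit without the array of BNS replicates 1 and 2 (0.92, adjusted p = 0.0846).

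The chemokine receptor Cx3cr1 was the member that stood apart in the rats without spasms. Cx3cr1 had levels of 1.49, 1.84, 1.53 and 1.62 in BNS rats, against 2.38, 1.98, 2.52 and 2.90 in SNS rats. All 4 BNS samples lay below all 4 SNS samples, which held for 3.3% of all genes tested. The difference was -0.78 ± 0.20 (95% CI -1.20 to -0.36, fold 0.583), with an adjusted p of 0.241, in a comparison where 0.00753% of all genes and no member were called. With SNS replicate 2 left out, the Cx3cr1 difference was -1.05 (adjusted p = 0.00713), the lowest adjusted p of 30 other settings. It was called under 6 of these, 5 of them with adjustment over all genes. No other fit that left out a single replicate called it.

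The means of the spasm groups lay between those of BNS and SNS. Cx3cr1 was at 1.86, 2.37, 1.78 and 2.47 in BYS rats, at 1.96, 2.23, 1.67 and 2.27 in BYA rats and at 2.10, 2.39, 1.85 and 2.54 in BYP rats. Only BYP was wholly above BNS, with a difference of 0.60 ± 0.21 (adjusted p = 0.609), while BYS minus BNS was 0.50 ± 0.21 (adjusted p = 0.105) and BYA minus BNS 0.41 ± 0.21 (adjusted p = 0.557). By mean level SNS (2.45) came before BYP (2.22), BYS (2.12), BYA (2.03) and BNS (1.62). No pair of neighbours was called, and BYA minus BNS had an interval of -0.03 to 0.85.

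Cx3cl1, the ligand of Cx3cr1 made by neurons, was among the brightest genes, and of the 3 ligands looked at for Cx3cr1 and Csf1r it was the 1 that passed the test. Cx3cl1 had levels of 5.33, 5.79, 5.32 and 6.02 in BYS rats, against 6.48, 6.86, 6.21 and 6.97 in BNS rats. It fell by 1.01 in BYS rats relative to BNS (SE 0.17, adjusted p = 0.0013) and by 0.92 relative to SNS (SE 0.17, adjusted p = 0.0022). Relative to BYS it was higher by 1.18 ± 0.17 in BYA rats (6.56, 6.96, 6.54 and 7.12, adjusted p = 0.000394) and by 1.00 ± 0.17 in BYP rats (6.72, 6.61, 6.28 and 6.86, adjusted p = 0.0018). Of all genes, 15.5% were called in BYS minus BNS and 7.58% in BYS minus SNS. In BYA and BYP minus BYS the shares were 8.67% and 9.7%. With the local trend of its array neighbours removed, Cx3cl1 in BYS minus BNS was -0.51 (adjusted p = 0.07), BYS minus SNS -0.38 (adjusted p = 0.308), BYA minus BYS 0.75 (adjusted p = 0.0248) and BYP minus BYS 0.54 (adjusted p = 0.0867). In the same 4 comparisons the receptor Cx3cr1 differed by 0.50 in BYS minus BNS, -0.28 in BYS minus SNS, -0.09 in BYA minus BYS (95% CI -0.53 to 0.35) and 0.10 in BYP minus BYS (-0.34 to 0.54), with none called, and the difference between ligand and receptor was not tested.

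P2ry12, the ADP receptor by which resting microglia follow nucleotides, was the member with the smallest differences. Its group means were 1.49 in BYS, 1.48 in BYA, 1.39 in BYP, 1.49 in BNS and 1.46 in SNS. The 10 differences between groups ran from -0.11 to 0.06, and the interval of BYS minus BNS was -0.53 to 0.52. P2ry12 read higher with Cy5 than with Cy3, by 0.53, so that its samples pair by dye within BYS and BYP in the plot of levels by sample.

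Csf1r, the receptor for the growth factors Csf1 and Il34, was at -0.75, -0.82, -0.67 and -0.90 in BYA rats, against -1.09, -1.89, -1.11 and -1.81 in BNS rats. The groups did not overlap, and the difference was 0.69 ± 0.22 (95% CI 0.22 to 1.16, adjusted p = 0.276). The 2 Csf1r spots did not give the same difference: 1.27 ± 0.32 at the dimmer spot and 0.08 ± 0.34 at the other. Of its ligands, Csf1 differed by -0.16 ± 0.34 in BYS minus BNS (adjusted p = 0.744) and Il34 by 0.08 ± 0.18 (adjusted p = 0.756), and neither was called in any of the 10 comparisons.

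Tyrobp, the signalling adaptor of Trem2 and of other myeloid receptors, was at 3.19, 3.88, 3.57 and 3.39 in BYA rats, against 2.96, 3.03, 2.80 and 2.96 in BNS rats and 2.97, 2.80, 2.68 and 2.94 in SNS rats. BYA was wholly above both groups without spasms, with differences of 0.57 ± 0.31 over BNS (adjusted p = 0.586) and 0.65 ± 0.29 over SNS (adjusted p = 0.3). In BYS rats Tyrobp was at 3.14, 3.78, 2.89 and 3.77 and in BYP rats at 2.83, 3.095, 3.98 and 3.25, so single samples of both groups fell within the range of the groups without spasms. Trem2 itself, which binds lipids and apolipoproteins, stayed within -0.18 to 0.20 in all 10 differences, with group means of 1.50 in BYS, 1.71 in BYA, 1.67 in BYP, 1.68 in BNS and 1.55 in SNS. Neither gene was called in any comparison.

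Cd68, a lysosomal membrane protein of macrophages, had the largest difference of any member and also the largest SE. Cd68 was at -0.66, -0.07, 0.42 and -0.43 in BYP rats, against -1.32, -1.97, -1.18 and -1.85 in BNS rats. BYA rats had -0.98, -0.43, -0.41 and -0.73, and SNS rats had -1.15, -1.68, -1.32 and -1.26. Both treated groups were wholly above BNS and above SNS. Cd68 in BYP minus BNS was 1.40 ± 0.39 (95% CI 0.58 to 2.21, fold 2.63), and 1.18 ± 0.37 in BYP minus SNS. In BYA minus BNS it was 0.94 ± 0.39. None of the 3 passed the test, with adjusted p of 0.402, 0.39 and 0.435.

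In BYS rats Cd68 fell into 2 pairs, with -0.30 and -0.06 on the array of replicates 1 and 2 and -1.38 and -1.77 on the array of replicates 3 and 4. The first pair lay within the BYP range and the second pair within the BNS range. The smoothed deviation of the neighbouring spots was -0.06 and -0.23 on the first array and -0.29 and -0.63 on the second. BYS minus BNS was 0.70 ± 0.39 over all samples (adjusted p = 0.209), 1.40 without the array of BYS replicates 3 and 4 (adjusted p = 0.0209) and 0.00 without that of replicates 1 and 2 (adjusted p = 0.995). Cd68 in BYP minus BYS was 0.69 ± 0.39 (adjusted p = 0.241), with -0.01 without the array of BYS replicates 3 and 4 and 1.39 without that of replicates 1 and 2 (adjusted p = 0.0374). Itgam showed the same split, with 0.08 and 0.19 on the first BYS array and -0.53 and -0.62 on the second.

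Itgam, the alpha chain of the complement receptor CR3 (CD11b), was at -0.35, 0.09, -0.04 and -0.75 in BYA rats and at -0.09, -0.10, -0.27 and -0.74 in BYP rats, against -0.66, -1.32, -0.48 and -0.53 in BNS rats. Its differences from BNS were 0.53 ± 0.36 in BYS, 0.48 ± 0.36 in BYA and 0.45 ± 0.36 in BYP, all with overlapping groups. Aif1, the calcium-binding protein known as Iba1, differed from BNS by 0.29 ± 0.23 in BYS, 0.39 ± 0.23 in BYA and 0.31 ± 0.23 in BYP. Its 2 spots gave 0.03 ± 0.29 and 0.66 ± 0.23 in BYS minus BNS, with adjusted p over all spots of 0.941 and 0.0598. Ptprc, the leukocyte phosphatase CD45, was the dimmest member and differed from BNS by 0.23 to 0.42 in the 3 spasm groups, with an SE of 0.28 (all overlapping). Its 11 spots gave medians of 0.23, 0.23 and 0.39 in BYS, BYA and BYP minus BNS, and none of them was called in any comparison.

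**Figure D2:**
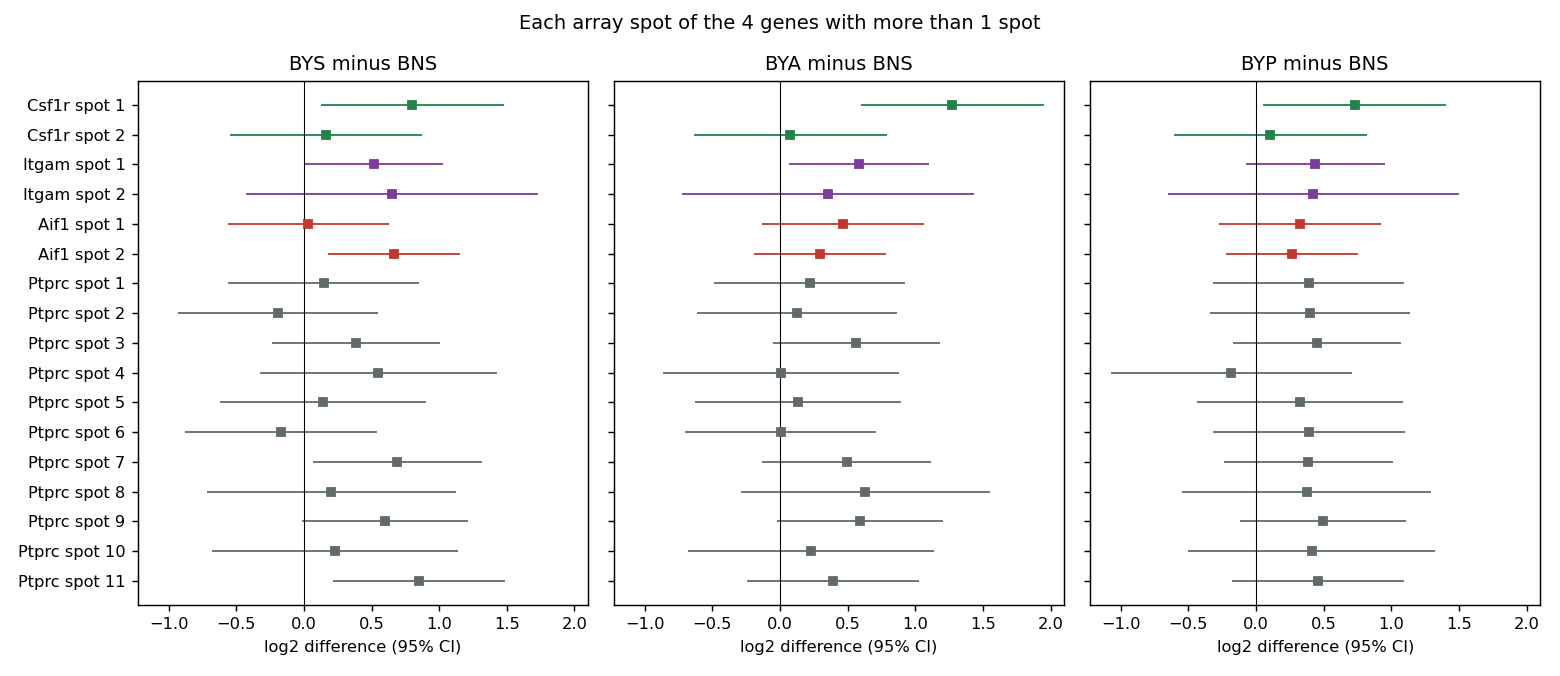
Difference in log2 units with its 95% confidence interval (x axis) for each array spot (y axis) of Csf1r, Itgam, Aif1 and Ptprc, in BYS, BYA and BYP minus BNS. The Csf1r spots differ most in BYA minus BNS (1.27 and 0.08) and the Aif1 spots in BYS minus BNS (0.03 and 0.66).

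Set side by side, the members were mostly on the positive side of BNS in all 3 spasm groups, which share the 4 BNS samples as their control. Of the 10 members, 8 were positive in BYS minus BNS, 9 in BYA minus BNS and 8 in BYP minus BNS. The median member difference was 0.44 in BYS, where the median of all genes was 0.18, 0.45 in BYA (all genes 0.05) and 0.43 in BYP (all genes 0.00). Against SNS the medians were 0.17 in BYS (all genes 0.05), 0.28 in BYA (all genes -0.05) and 0.24 in BYP (all genes -0.07), with 6, 9 and 7 members positive. In BNS minus SNS the median was -0.12 (all genes -0.07) with 4 members positive.

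Groups that did not overlap were counted in the same way. Lsp1 was the 1 member wholly above BNS in BYS, as 8.5% of all genes were. In BYA 4 members were, namely Cd68, Csf1r, Tyrobp and Lsp1, beside 5.22% of all genes. In BYP 3 members were, namely Cd68, Cx3cr1 and Lsp1, beside 3.19% of all genes. Against SNS, 1 member was wholly higher in BYS (Lsp1, 6.86% of all genes), 2 in BYA (Cd68 and Tyrobp, 4.28%) and 2 in BYP (Cd68 and Lsp1, 2% of all genes). No member had all 12 spasm samples above the 8 others, as 0.0979% of all genes did, and none had all 4 BNS samples below the 16 others, as 0.399% did. By unadjusted p under 0.05, 2 members passed in BYS minus BNS (34% of all genes), 3 in BYA minus BNS (9.76%), 3 in BYP minus BNS (5.47%), 2 in BNS minus SNS (14.9%), 2 in BYS minus SNS (23.2%), 2 in BYA minus SNS (15.8%) and 2 in BYP minus SNS (12.5%).

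**Figure D3:**
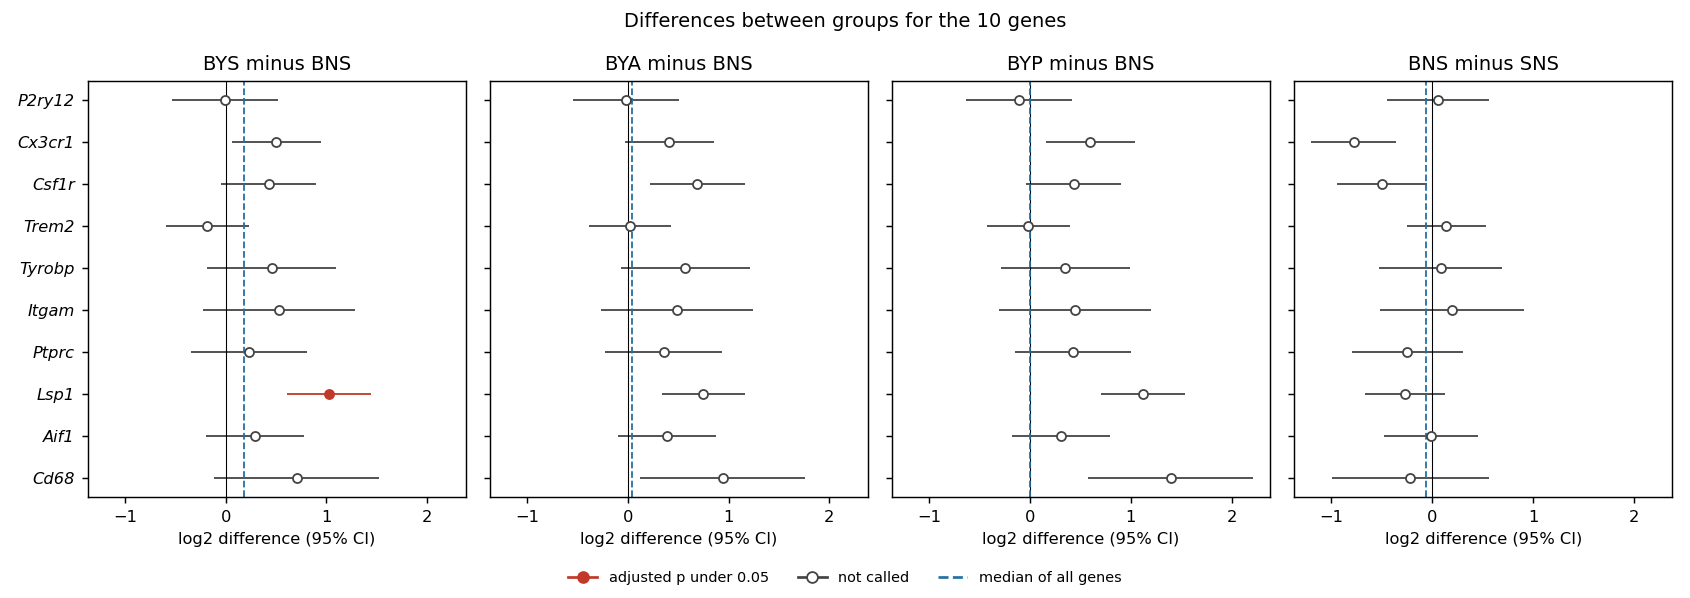
Difference of each member in log2 units with its 95% confidence interval (x axis) for BYS, BYA and BYP minus BNS and for BNS minus SNS. The filled red point marks an adjusted p under 0.05, and the dashed line is the median of all 13285 genes. Lsp1 in BYS minus BNS (1.02) is the 1 filled point, and Cd68 in BYP minus BNS (1.40) has the widest distance from 0.

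No member was called between the spasm groups. In BYA minus BYS 8.67% of all genes tested were called, in BYP minus BYS 9.7% and in BYP minus BYA 0.0301%, and the count of members was 0 in each. At an unadjusted p under 0.05 the count was also 0 in each, where 25.5%, 29.8% and 4.61% of all genes passed. The member differences ran from -0.27 to 0.26 in BYA minus BYS, from -0.11 to 0.69 in BYP minus BYS and from -0.26 to 0.45 in BYP minus BYA. In BYA minus SNS and BYP minus SNS no member was called either, where 0.0226% and 0.0151% of all genes were.

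Dim genes shifted as a whole in some comparisons. In the lowest 10% of genes by level the median difference was 0.61 in BYS minus BNS, 0.02 in BYS minus SNS and -0.60 in BNS minus SNS, and above the 75th percentile it was -0.07, 0.04 and 0.09. Tyrobp, Aif1, Cx3cr1 and Trem2 lay in that brightest range. Lsp1 and P2ry12 lay between the 50th and 75th percentile, where the BYS minus BNS median of all genes was 0.01. Cd68, Csf1r and Itgam lay where it was 0.21, and Ptprc, at the 24.6th percentile, was at the edge of the range where it was 0.49. In BYA and BYP minus BNS no range of level had a median beyond 0.09. In BYA minus BYS the lowest 10% of genes had a median of -0.54 and those between the 10th and 25th percentile -0.36, and in BYP minus BYS the medians were -0.60 and -0.41.

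**Figure D4:**
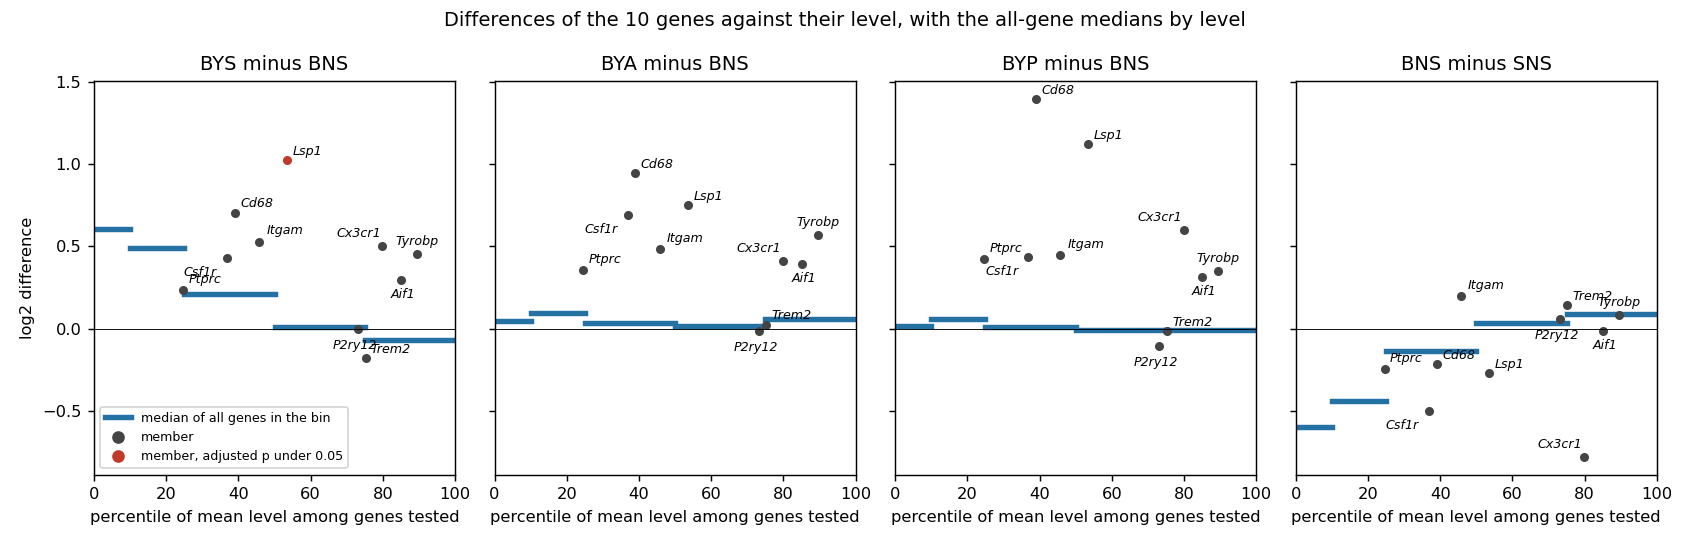
Difference in log2 units (y axis) of each member against the percentile of its mean level among all genes tested (x axis), in 4 comparisons. Blue bars are the median difference of all genes in 5 ranges of level. In BYS minus BNS the bars fall from 0.61 to -0.07 as level increases, and in BNS minus SNS they run the other way, from -0.60 to 0.09.

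Other genes of the same cells were counted by list. Of 13 homeostatic microglia genes measured (of 17 listed), 2 rose in BYS relative to BNS and none fell, a share close to the 15.5% of all genes called: Crybb1 by 1.12 ± 0.30 (adjusted p = 0.0194) and the nucleotide receptor P2ry13 by 0.61 ± 0.17 (adjusted p = 0.023). P2ry13 was at -1.10, -1.97, -1.31 and -2.02 in BYS rats, against -1.84, -2.76, -2.41 and -3.27 in BYA rats and -2.14, -2.78, -1.89 and -2.81 in BYP rats. It fell by 0.97 in BYA (adjusted p = 0.00128) and by 0.81 in BYP (adjusted p = 0.00632) relative to BYS, and was the 1 gene of the list called there. P2ry13 is dim, with levels like those of the genes that shifted down as a whole in both comparisons. The median of the list was 0.54 in BYS minus BNS, beside 0.18 for all genes, and its median level was -1.24. In BYA minus BNS the list median was 0.03 (all genes 0.05) and in BYP minus BNS 0.21 (all genes 0.00), with 8 of 13 positive in each. Against SNS the list median was -0.31 in BYA (all genes -0.05) and 0.05 in BYP (all genes -0.07), with 6 and 7 positive. With the local trend removed the P2ry13 difference was 0.25 in BYS minus BNS (adjusted p = 0.29), -0.66 in BYA minus BYS (adjusted p = 0.0286) and -0.45 in BYP minus BYS (adjusted p = 0.106).

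Of 14 innate receptors measured (of 16 listed), 5 rose in BYS relative to BNS and none fell, beside 15.5% of all genes called, with a list median of 0.71 beside 0.18 for all genes. The list was dim, with a median level of -1.62, in a comparison where dim genes shifted up. They included the Fc receptors Fcgr1a (0.80 ± 0.21, adjusted p = 0.018) and Fcgr3a (0.65 ± 0.18, adjusted p = 0.0244) and the endotoxin receptor Tlr4 (0.73 ± 0.21, adjusted p = 0.0306). With the local trend removed 1 of the 14 was called, as were 1162 of all 13285 genes. In BYS minus SNS none of the 14 was called, where 7.58% of all genes were. The list median there was 0.38, beside 0.05 for all genes. C5ar1, the complement C5a receptor that PMX53 blocks, was not called: it differed by 0.72 ± 0.32 in BYS minus BNS (adjusted p = 0.128), 1.00 ± 0.31 in BYS minus SNS (adjusted p = 0.0539), 0.53 ± 0.32 in BYP minus BNS (adjusted p = 1) and -0.18 ± 0.32 in BYP minus BYS (adjusted p = 0.733). C3ar1 differed by 0.33 ± 0.41 in BYS minus BNS.

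Of 8 genes of the myeloid transcription factor and growth factor list measured (of 11 listed), Spi1 and Cebpa rose and Cx3cl1 fell in BYS relative to BNS, beside 15.5% of all genes called. The list median was 0.16, beside 0.18 for all genes. Spi1 and Cebpa were dim, in a comparison where dim genes shifted up. Spi1, which encodes the macrophage transcription factor PU.1, was at -1.15, -1.64, -1.22 and -2.36 in BYS rats, against -1.79, -2.94, -1.73 and -3.04 in BNS rats (0.78 ± 0.21, adjusted p = 0.0224). With the local trend removed the Spi1 difference was 0.41 (adjusted p = 0.191), and none of the 8 genes was called. Of 18 immune receptor signalling genes measured (of 22 listed), Inpp5d rose by 0.82 ± 0.20 and Coro1a fell by 1.52 in BYS relative to BNS, a share no higher than the 15.5% of all genes called. The median of that list was 0.26, beside 0.18 for all genes. Coro1a, an actin-binding protein of leukocytes that neurons also express, was at 2.36, 2.63, 2.01 and 2.19 in BYS rats, against 3.80, 3.97, 3.53 and 3.99 in BNS rats (adjusted p = 7.9e-05), and was called under all 31 settings.

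Among 15 lysosomal and disease-associated microglia genes measured (of 18 listed), Cst7, a cathepsin inhibitor, was the 1 called in BYS and BYA minus BNS. The differences were 0.84 ± 0.16 (adjusted p = 0.00264) and 0.84 ± 0.16 (adjusted p = 0.0324), beside 15.5% and 0.241% of all genes called. The list medians were 0.20 (all genes 0.18) in BYS and 0.28 (all genes 0.05) in BYA minus BNS. In BNS rats Cst7 was at -1.3, -1.95, -1.24 and -1.88, all below the SNS values of -0.92, -1.18, -0.73 and -0.998, as held for 3.3% of all genes. BYS rats had -0.58, -0.91, -0.64 and -0.88 and BYA rats -0.55, -0.94, -0.56 and -0.97, both overlapping SNS. Cst7 was not called in BYS minus SNS or in BYA minus SNS. The Cst7 call in BYS minus BNS held under 29 of 31 other settings and that in BYA minus BNS under 13 of 31, being lost among others with the slide as a random block (adjusted p = 0.282), with the replicate number as a block (adjusted p = 0.0597) and without BNS replicate 2 or 4 or BYA replicate 2 or 3. Over the 15 genes the differences ran from -0.733 to 2.655 in BYS minus BNS and from -0.178 to 4.158 in BYA minus BNS. Of the 15, 9 and 12 were positive there. In BYP minus BNS all 15 were positive and none was called, with a median of 0.365 (all genes 0.00). In BYA minus BYS 2 of the 15 rose and in BYP minus BYS 3 did, beside 8.67% and 9.7% of all genes called. Lyz2, the lysozyme of macrophages, was at 2.20, 2.90, 2.43 and 2.92 in BYA rats and 2.18, 2.42, 3.32 and 2.58 in BYP rats, against 0.85, 1.36, 0.68 and 1.38 in BYS rats. It rose by 1.54 ± 0.32 in BYA (adjusted p = 0.00578) and by 1.56 ± 0.32 in BYP (adjusted p = 0.00569) relative to BYS. The cathepsin gene Ctss was the other gene called in both, at 1.26 ± 0.27 and 1.14 ± 0.27. In BYS rats Ctss was at 2.87 and 3.47 on the array of replicates 1 and 2, within the range of BNS, and at 1.62 and 2.22 on that of replicates 3 and 4. Without the second array the differences were 0.63 in BYA minus BYS (adjusted p = 0.0585) and 0.51 in BYP minus BYS (adjusted p = 0.114). With the local trend removed Ctss in BYA minus BYS was 0.79 (adjusted p = 0.0714). Lyz2 also fell by 1.24 in BYS relative to SNS (SE 0.30, adjusted p = 0.018), with -0.96 (adjusted p = 0.098) once the local trend was removed.

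Markers of other cells were counted in BYS minus BNS too, where 15.5% of all genes were called and the median of all genes was 0.18. None of 11 neuron genes (list median 0.08) and none of 9 astrocyte genes (0.49) was called, and of 7 endothelial genes Flt1 rose by 0.56 and Kdr fell by 0.92. Of 8 oligodendrocyte genes, 3 rose in BYS relative to BNS with a list median of 1.71, among them Mog (2.44 ± 0.63, adjusted p = 0.0159), while the bright myelin gene Mbp differed by -0.44 ± 0.34 (adjusted p = 0.357). None of the 8 was called in BYS minus SNS, where the list median was 0.77 and 7.58% of all genes were called. In BNS minus SNS the list median was -0.88. Of 5 border and perivascular macrophage genes 1 rose (Cd163, 1.23 ± 0.38, adjusted p = 0.0368, and 0.147 with the local trend removed), of 7 monocyte and neutrophil genes 1 (Vcan), of 6 lymphocyte genes 1 (Cd3d) and of 4 red blood cell genes 1 (Slc4a1). The list medians were 0.39 for border macrophages, 0.32 for monocytes and neutrophils, 0.73 for lymphocytes and 0.50 for red blood cells. By mean level the 5 border macrophage genes lay between -2.94 and -1.18, the 7 monocyte and neutrophil genes between -2.96 and -0.29 and the 6 lymphocyte genes between -2.92 and -0.86, all below the middle gene. The part of these cells in the member differences was not tested.

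The sample pattern of the members was summarized as the mean of their standardized levels in each sample. It ran from -0.55 to 0.91 in BYS, -0.07 to 0.77 in BYA and -0.25 to 0.82 in BYP, against -0.76 to -0.48 in BNS and -0.78 to -0.02 in SNS. The genes whose levels followed it most closely over the 20 samples, of 12483 other genes searched, were Igf1 (Pearson's r 0.919, Spearman's rho 0.901), the MHC class II invariant chain gene Cd74 (0.871 and 0.886), the oxidase subunit gene Ncf1 (0.856 and 0.82), A2m (0.842 and 0.789) and the complement gene C1qa (0.838 and 0.798). Without BYS replicate 2 and BYP replicate 3, the samples farthest from the median, r ran from 0.792 to 0.896. These are descriptions, since the genes were picked as the most alike and the samples share arrays, slides and dyes.

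Over the 45 pairs of members, r across the 20 samples had a median of 0.24 and ran from -0.81 to 0.777. These values hold the dye as well as the groups, and r with the dye removed was not computed. Ptprc and P2ry12 gave the lowest value, and they also had opposite dye terms, with Cy5 minus Cy3 of -0.76 for Ptprc and 0.53 for P2ry12. Ptprc and Csf1r gave the highest, and Csf1r also read lower with Cy5, by -0.39. Among the brighter members Aif1 and Tyrobp had an r of 0.729 and Aif1 and Trem2 of 0.708.

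**Figure D5:**
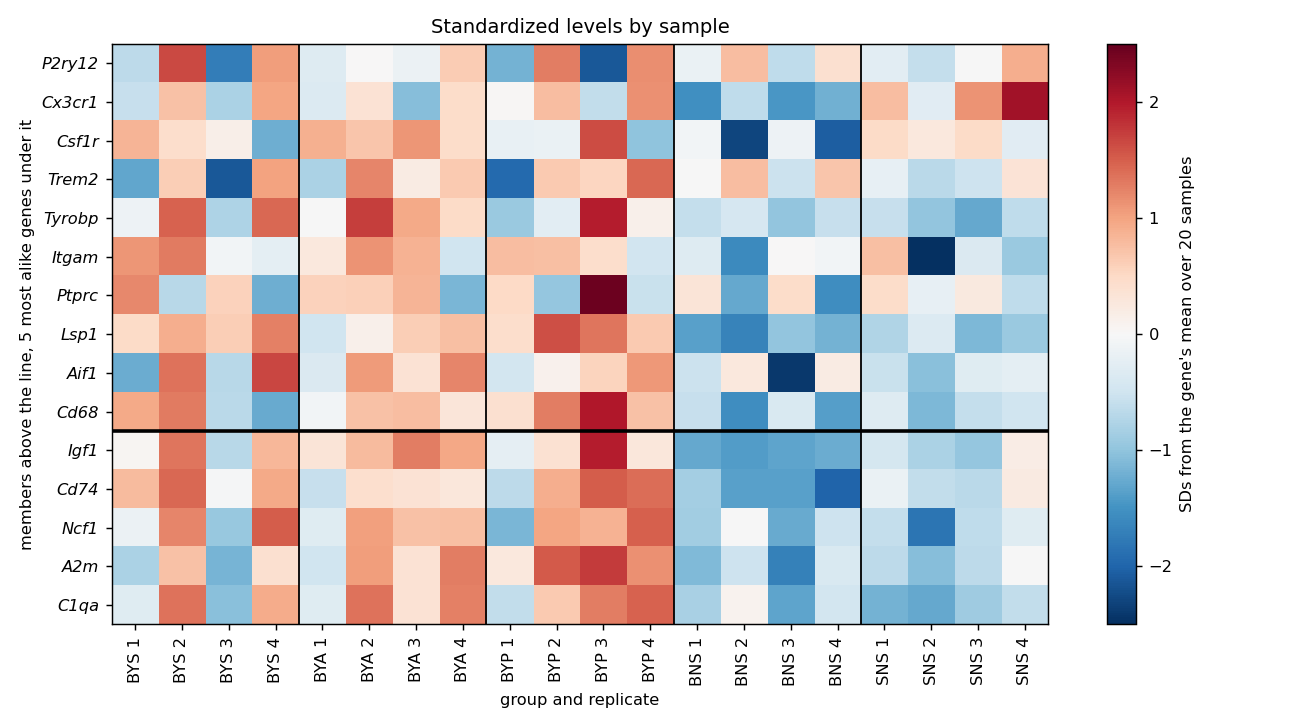
Level of each member and of the 5 genes most like their mean (rows), in SDs from the gene's own mean over the 20 samples (colour), for each sample (columns, by group and replicate). The mean of the members lies between -0.76 and -0.48 in the 4 BNS columns, and Ptprc and P2ry12 (r -0.81) run opposite ways in most samples.

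Promoter windows were read for the members from RefSeq on the rat build GRCr8 (250 bases before to 50 after the annotated start), where 6 of 10 members had an entry. They are shown because Spi1, whose protein PU.1 binds the purine-rich PU box GAGGAA in many macrophage genes, was among the genes called. That call, in BYS minus BNS, was lost with the local trend removed (0.41, adjusted p = 0.191). Lsp1, the member called, had no window. GAGGAA on either strand was in 5 of the 6 windows (Cd68, Csf1r, Itgam, Ptprc and Trem2), beside 27.6% of all 33469 windows of the same length. The longer forms GAGGAAG and GAGGAAGT, which contain it, were in 4 and 0 of the 6, beside 12.4% and 2.42% of all windows. A match of these letters is a description and not a binding site. The 5 members with GAGGAA were not called in any comparison, and a part of PU.1 in the member differences was not tested. The Itgam window (chr1:192089342-192089641, plus strand) holds 1 match on each strand, the Cd68 window (chr10:54882392-54882691, minus strand) also 1 on each, and that of Cx3cr1 (chr8:128677017-128677316, minus strand) none. The Cx3cr1 window lies inside the span of its gene (chr8:128661294-128679048) and does not reach the outermost start. These windows are given 5′ to 3′ on the strand of the gene, with GAGGAA or its complement TTCCTC in capitals.
Itgam: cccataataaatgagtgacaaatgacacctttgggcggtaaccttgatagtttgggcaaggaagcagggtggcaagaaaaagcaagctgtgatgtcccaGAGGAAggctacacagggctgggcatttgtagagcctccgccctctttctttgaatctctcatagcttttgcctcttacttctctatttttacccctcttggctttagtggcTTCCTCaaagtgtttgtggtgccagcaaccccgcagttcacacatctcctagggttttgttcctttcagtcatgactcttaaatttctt
Cd68: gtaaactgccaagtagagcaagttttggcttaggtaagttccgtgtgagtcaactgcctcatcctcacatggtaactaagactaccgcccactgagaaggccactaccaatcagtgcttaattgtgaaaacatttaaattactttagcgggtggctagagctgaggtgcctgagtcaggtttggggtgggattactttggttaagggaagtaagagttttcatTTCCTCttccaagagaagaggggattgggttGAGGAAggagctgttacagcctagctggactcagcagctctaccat
Cx3cr1: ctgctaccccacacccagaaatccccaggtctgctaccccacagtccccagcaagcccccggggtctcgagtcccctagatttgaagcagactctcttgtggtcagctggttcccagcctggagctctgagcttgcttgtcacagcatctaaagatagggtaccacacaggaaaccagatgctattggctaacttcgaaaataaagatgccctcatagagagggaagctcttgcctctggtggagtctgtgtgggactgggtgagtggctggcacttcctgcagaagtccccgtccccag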

How the data were processed

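RNA of 20 male rats was amplified, labelled with Cy3 or Cy5 and hybridized 2 samples to an array. The submitters' processing notes name Agilent Feature Extraction 10.7.3.1. The table deposited by the authors holds linear intensities, and how these were background-corrected, filtered and scaled is not given in the sources used here. Values were taken as log2, spots (32107 of 44254 with a value in every sample) were averaged per gene by symbol, and a gene entered with 3 or more values a group (12493 complete genes, 792 from their most complete spot). Each sample's median over genes was subtracted. limma 3.58.1 in R 4.3.3 was fitted to all samples at once, with group and dye as fixed terms and the array as a random block (correlation 0.436), two-sided, with Benjamini-Hochberg adjustment at 0.05. The fit was checked on simulated data. Same-numbered replicates shared a dye. Their deviations correlated with a median of 0.61, and of -0.017 after the dye, so the numbers were not taken as pairs. The alternatives tried were other centrings, quantile normalization, a local trend, filters, blocks, dyes, left-out samples and arrays, and the methods' t-test. Array number limits the precision. All members are named, and of each wider list at most 4 genes, called ones first. The members and lists were chosen with earlier results of these data known.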

Additional observations from a re-analysis of the deposited data

Results flagged for a closer look

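Among 50 sets of 4 samples (10 members in 5 groups), 1 value stood far from the rest of its group, where chance gives about 1 in 20. Ptprc was at -2.39 in BYA replicate 4, against -1.55 to -1.42 in the other BYA samples, a gap of 0.86 of the group's range. That sample carried Cy5, with which Ptprc read lower over all samples.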

How the results depend on the processing

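Counts of members called were recomputed under each alternative, 2 of which were chosen after seeing the data (each spot on its own, another median subtracted). In BYS minus BNS (1 member, Lsp1) the count was 2 with the 75th percentile or quantile normalization, with the local trend removed, without the dye term, with SNS replicate 2 taken as Cy3, with the compared groups alone and with the array that held BYS replicates 3 and 4 left out; it was 3 without the array block and 0 without the array of BNS replicates 1 and 2, and leaving out each replicate gave 1 throughout. In BYA minus BNS (0) it was 1 with the local trend removed and without the array of BYA replicates 1 and 2, 2 without the array block or the dye term and 4 by the methods' t-test unadjusted. In BYP minus BNS (0) it was 1 with the local trend removed, complete genes, the lowest 25% of genes left out, SNS replicate 2 as Cy3 or an intensity trend, 2 without the array block or the dye term and 3 with the compared groups alone or the unadjusted t-test; leaving out each replicate gave 0 to 1. In BNS minus SNS (0) it was 1 with quantile normalization, without the array block or the dye term, with SNS replicate 2 as Cy3 and by the unadjusted t-test; leaving out each replicate gave 0 to 1, the 1 being Cx3cr1 without SNS replicate 2. In BYS minus SNS (1, Lsp1) it was 0 with quantile normalization, the local trend removed, the slide as a random block, the compared groups alone, Cy5 samples alone and without the arrays of SNS replicates 3 and 4, BYS replicates 1 and 2 or BYS replicates 3 and 4; leaving out each replicate gave 1 to 2. With Cy3 samples alone the 1 gene called there was Cx3cr1. The unadjusted t-test gave 4 in BYA minus SNS and 2 in BYP minus SNS, where the count was also 1 without the array block or the dye term. Without the array of BYS replicates 1 and 2 it was 1 in BYP minus BYS (Cd68, 1.39), and without that of replicates 3 and 4 the Cd68 difference there turned to -0.008. Why these counts move was not tested. The replicate number as a block left every count of members as it was, 1 in BYS minus BNS and in BYS minus SNS and 0 elsewhere, while Cst7 in BYA minus BNS lost its call, and after the dye 2 of 20 samples correlated best with their own number. Of the 100 pairs of member and comparison, 2 were called, 12 were called under some other setting with adjustment only, and 86 under none. Dim members, Ptprc most, are limited by signal near the lower end of the range.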
